A study of Mus musculus with 6 samples.

Results

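In the prelimbic cortex (PLc) of mice given ketamine, 35 genes stood below all saline values in all ketamine mice by a fixed margin. The PLc is a medial field of the rodent prefrontal cortex, and ketamine is an antagonist of NMDA-type glutamate receptors. RNA was sequenced from the PLc of 3 C57Bl/6 mice given saline (mice 1, 6 and 10) and 3 given ketamine (mice 3, 5 and 9), with 1 library per mouse, all aged 9 weeks. Ketamine at 30 mg/kg or the saline vehicle was injected i.p. once daily for 5 days, and the tissue was taken 2 days after the last injection. Values are normalised read counts, that is reads per gene divided by a size factor of the library. The reads counted in the listed genes, recovered from these values, came to 26273436 to 32643726 per library. A gene entered when its mean over the 6 mice was at least 50 normalised counts and its highest value among the ketamine mice was at most 0.75 times its lowest value among the saline mice.

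Of the 37620 genes listed, 13521 reached the mean of 50 and 40 of them (0.296%) met the margin. Of these, 5 were set aside by the rule's list of symbols, namely Chrna5, Neurod6, Kcns3, Bdnf and Kcnc2, which leaves 35 genes, or 0.26% of the 13443 genes that remained eligible. The mirror margin, the lowest ketamine value at least 1/0.75 times the highest saline value, was met by 123 genes (0.91%). Without a margin, all 3 ketamine mice lay below all 3 saline mice in 603 genes (4.46%) and above them in 718 (5.31%). Because the normalised counts themselves chose the 35 genes, their differences are given below as a description, with standard errors (SE) and with no test. Just inside the margin stood Galnt9, Trpc6 and Epha4, with ratios of the highest ketamine to the lowest saline value of 0.736, 0.747 and 0.749. Just outside it stood Grik4, Tbata and Ramp3, at 0.752, 0.754 and 0.759, so these 3 genes differ little from the last 3 that entered.

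**Figure D1:**
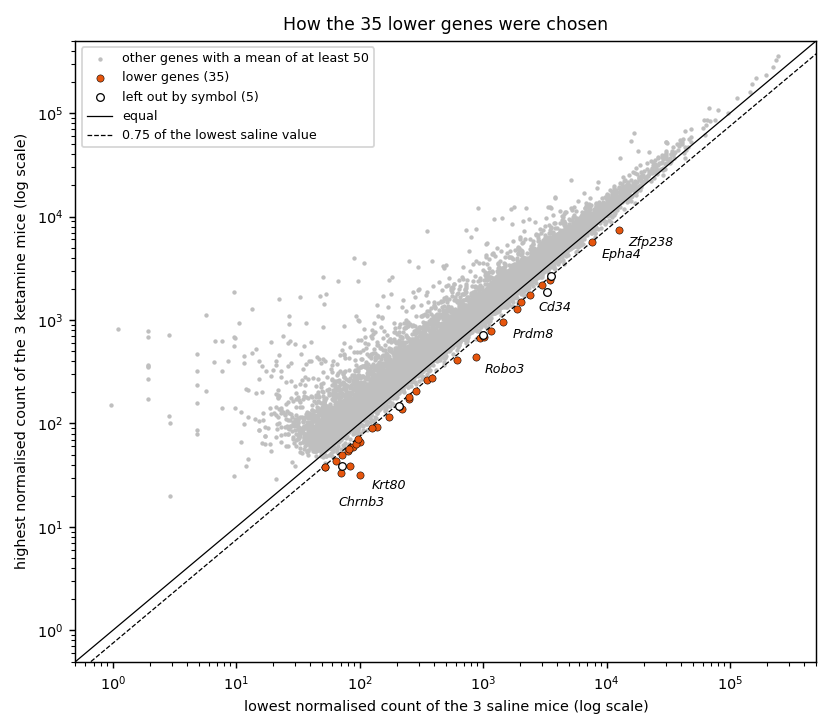
The highest normalised count among the 3 ketamine mice is plotted against the lowest among the 3 saline mice, on log scales, for genes with a mean of at least 50 normalised counts; 6 genes at 0 or off the axes are not drawn. The 35 lower genes lie on or under the dashed line of 0.75, and the 5 open circles are genes that met the margin but were left out by symbol.

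The deposited table was also compared between ketamine and saline over the 16127 genes whose mean was 10 normalised counts or more. At a Benjamini-Hochberg adjusted threshold of 0.05, limma called 0 genes lower, with 382 lower genes at an unadjusted 0.05 (2.37%), and edgeR called 0, with 364 (2.26%). DESeq2 on the recovered reads called 37 genes lower (0.229%), with 419 at an unadjusted 0.05 (2.6%), and 22 of its 37 were among the 35 genes. Since the same contrast chose the genes, nothing about them rests on these calls. In bulk tissue, fewer cells of a type and less RNA per cell cannot be told apart, which holds for every gene below.

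The 35 genes are varied, and many are best known from tissues other than brain. Transcription factors such as Zfp238 fix the fate of cortical projection neurons during development and remain expressed in the adult cortex. Guidance receptors of the Robo, Eph and Met families steer axons in development and take part in the upkeep of synapses. Receptors for acetylcholine and noradrenaline let the neuromodulatory afferents of the prefrontal cortex act on its neurons, and link proteins hold the hyaluronan matrix around them. By their known roles, 6 of the 35 genes act in transcription, 4 are guidance receptors and 8 are other receptors, channels or transporters. A further 6 serve the matrix, O-glycosylation or the cell surface, 4 the cytoskeleton and 5 are enzymes or other intracellular proteins, while 2 carry clone names only.

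On the log2(normalised count + 1) scale, the median log2 fold change of the 35 genes was -1.06 (range -2.80 to -0.68), and that of all 16127 genes was -0.01. In linear terms the ketamine mean was lower than the saline mean by a median of 52.2%, from 37.8% for Asb11 to 92.0% for Lct, and 21 genes stood at under 50% of their saline mean. By role, the median difference ran from 43.1% for the 2 clone names to 54.7% for receptors, channels and transporters, and it was 51.7% for transcription and 53.6% for guidance receptors.

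**Figure D2:**
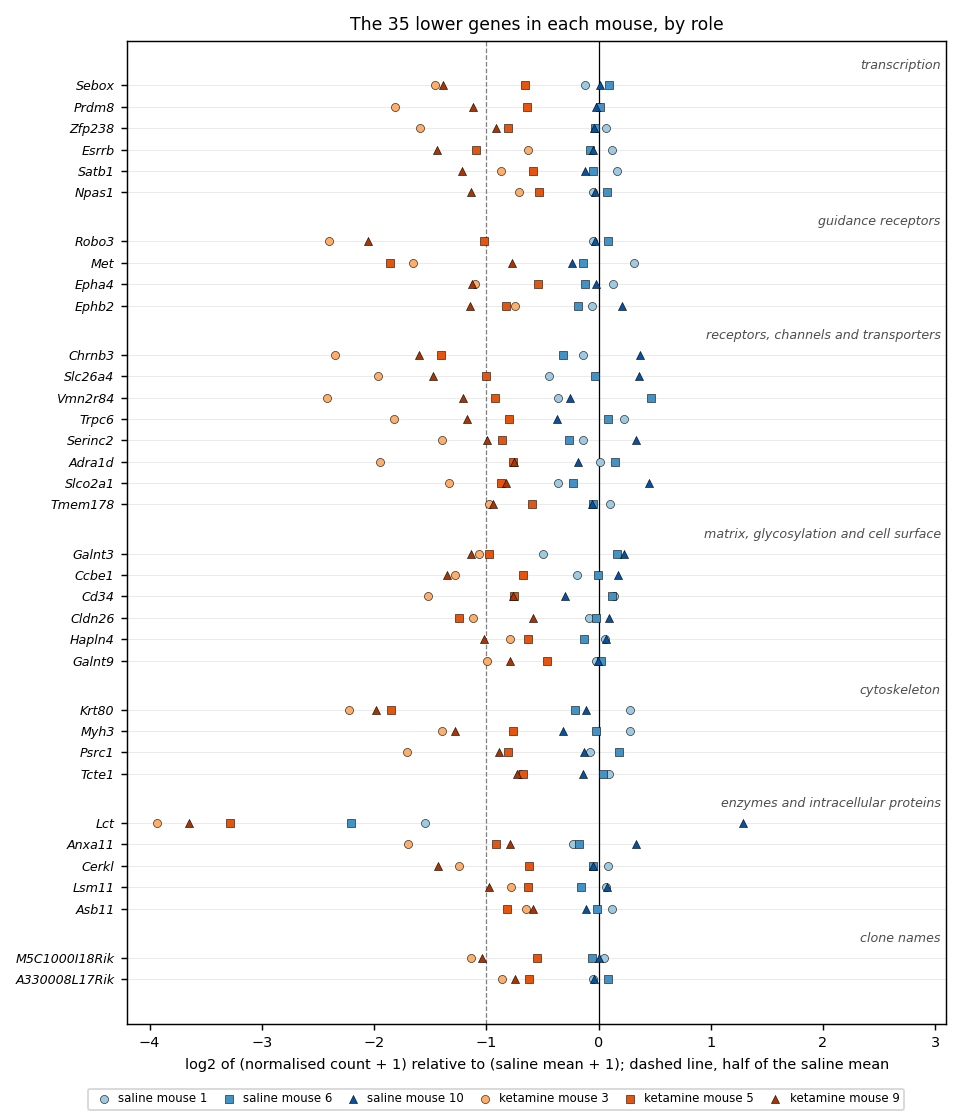
Each row is 1 of the 35 lower genes, grouped by role, and each point is 1 mouse, placed by its log2 of (normalised count + 1) relative to the saline mean plus 1. All ketamine points lie left of all saline points, as the rule requires, and mouse 3 holds the lowest value in 21 genes.

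As examples of what lies upstream of these genes, the 250 bases before a start site are given for the most abundant gene, Zfp238, and for 3 others. They are from the RefSeq promoter table on GRCm38.p6. Capitals mark the E-box CAGATG (or its reverse complement CATCTG), which neurogenic bHLH factors bind, and the core of the cAMP response element (CRE), TGACG (or CGTCA), which CREB binds. The printed windows all hold such a motif, so they do not stand for the set. Satb1, Cd34 and Tmem178, more abundant than Prdm8, held neither motif before any start, and a second start of Galnt9 held no CRE core. The windows are chr1:177442101-177442350 (plus strand, Zfp238), chr5:98180619-98180868 (plus strand, Prdm8), chr1:77515089-77515338 (minus strand, Epha4) and chr5:110544105-110544354 (plus strand, Galnt9), all written 5′ to 3′ and ending at the base before the start.
Zfp238: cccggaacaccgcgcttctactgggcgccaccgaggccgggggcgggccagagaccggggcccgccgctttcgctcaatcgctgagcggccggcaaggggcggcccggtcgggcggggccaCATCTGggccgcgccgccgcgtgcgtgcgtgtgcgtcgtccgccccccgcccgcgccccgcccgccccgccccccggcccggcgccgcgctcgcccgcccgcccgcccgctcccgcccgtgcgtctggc
Prdm8: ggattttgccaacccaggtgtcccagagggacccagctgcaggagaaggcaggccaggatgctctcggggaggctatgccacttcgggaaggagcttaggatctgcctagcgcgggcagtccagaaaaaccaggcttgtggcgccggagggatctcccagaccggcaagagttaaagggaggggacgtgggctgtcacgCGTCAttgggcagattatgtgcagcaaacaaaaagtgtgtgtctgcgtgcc
Epha4: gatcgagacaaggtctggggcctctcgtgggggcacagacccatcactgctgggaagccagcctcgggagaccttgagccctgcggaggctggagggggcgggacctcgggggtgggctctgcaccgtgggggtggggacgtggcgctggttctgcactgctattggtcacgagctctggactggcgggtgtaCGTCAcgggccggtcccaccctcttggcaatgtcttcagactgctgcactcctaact
Galnt9: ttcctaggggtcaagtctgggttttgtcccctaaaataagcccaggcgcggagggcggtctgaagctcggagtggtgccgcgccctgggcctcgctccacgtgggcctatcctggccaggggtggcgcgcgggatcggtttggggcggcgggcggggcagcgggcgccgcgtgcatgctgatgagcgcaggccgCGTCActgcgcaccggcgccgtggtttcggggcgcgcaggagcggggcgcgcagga
The E-box of Zfp238 began 129 bases before this start, and an E-box was found before all 5 of its annotated starts, some of whose windows overlap. In the printed windows of Prdm8, Epha4 and Galnt9 the CRE core began 51, 57 and 56 bases before the start. In the other genes with the core it began from 42 (Serinc2) to 199 (A330008L17Rik) bases before. In Prdm8 it shares its last base with ATTGG, the reverse complement of the CCAAT box.

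Neither motif was common among the genes. Of the 35, 29 had a RefSeq promoter, and an E-box stood before at least 1 start of 4 of them (13.8%), against 11.9% of the 10454 genes that reached the mean of 50 and had one. The genes besides Zfp238 were Galnt9, Serinc2 and Vmn2r84. The CRE core was present in 8 of 29 (27.6%) against 30.6%, and the other 5 genes were A330008L17Rik, Asb11, Esrrb, Serinc2 and Trpc6. CCAAT was present in 10 (34.5%) against 40.3%, and the GC box GGGCGG in 17 (58.6%) against 64.5%. The TATA box TATAAA was present in 4 (13.8%) against 7.74%, namely Myh3, Slc26a4, Slco2a1 and Zfp238. These are matches of letters on both strands, with no count of factor binding.

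Among the transcription factors, Zfp238 was the most abundant of the 35 genes, per kilobase of exon as well. It encodes RP58, now named Zbtb18, a zinc finger repressor of cortical glutamatergic neurons, and lies at chr1:179374792-179380891 (mm9, plus strand) with 2 exons. Saline mice 1, 6 and 10 gave 13700.0, 12775 and 12674 normalised counts, and ketamine mice 3, 5 and 9 gave 4336, 7456 and 6939. The saline mice lay close together, whereas ketamine mouse 3 stood well below the other two. The mean was 13050 ± 566 in saline and 6244 ± 1672 in ketamine mice (SD over 3 mice each), which is -1.10 ± 0.22 (SE) as a log2 fold change.

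Prdm8, a repressor that acts with Bhlhe22 in projection neurons, gave the tightest saline values of the transcription factors, 1492, 1499 and 1461. The ketamine mice gave 422, 956 and 683, so that they spread far more widely than the saline mice while lying below them (log2 fold change -1.19 ± 0.28 SE). On the files' build, 684 of its exon bases (21.9%) are shared with A730035I17Rik on the opposite strand, a gene with a mean of only 7.12 normalised counts. Its partner Bhlhe22, named after its values were seen, gave 1405, 1452 and 1607 in saline mice and 582, 1105 and 1122 in ketamine mice, again with no overlap and with mouse 3 lowest.

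Satb1 and Npas1 are known from interneurons. Satb1, a chromatin organiser of interneurons born in the medial ganglionic eminence, gave 3683, 3176 and 3022 in saline mice and 1808, 2193 and 1415 in ketamine mice (-0.88 ± 0.18). Npas1, a bHLH-PAS factor, gave 253, 277 and 257 against 161, 182 and 119 (-0.79 ± 0.20). In both genes ketamine mouse 9 was lowest and mouse 5 highest, an order unlike that of Zfp238 and Prdm8. On the interneuron lists that hold Satb1 (SST) and Npas1 (VIP and CCK), 8 and 7 of 13 genes were higher on the mean. So were all 9 genes of a pan-GABAergic list.
The other two of this role were sparse. Sebox, a homeobox gene, gave 92.9, 108 and 102 in saline mice and 36.2, 64.0 and 38.1 in ketamine mice, and Esrrb, an orphan nuclear receptor, gave 92.9, 81.1 and 82.4 against 54.8, 39.5 and 30.8. The related receptors of Esrrb and the relatives of Npas1 all had overlapping groups.

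Of the 66 genes of a list of neuronal transcription factors, 64 were tested. On the mean, 41 were lower and 23 higher in ketamine mice, and the groups did not overlap in 10 lower genes and 4 higher genes, and the median log2 fold change was -0.22. Over all tested genes, 751 of 16127 (4.66%) were lower and 918 (5.69%) higher without overlap. The 10 lower genes were Zfp238, Satb1, Neurod2, Neurod6, Lhx2, Etv1, Zfpm2, Nfix, Bhlhe22 and Klf9, and the 4 higher ones were Bcl11b, Lmo3, Id4 and Fosl2. Of the 10, Zfp238 and Satb1 were chosen by the rule and Neurod6 met its margin, so this count is not independent of the rule.

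Robo3 showed the largest difference of the 4 guidance receptors. It is a divergent Roundabout receptor known for letting commissural axons cross the midline, and lies at chr9:37223254-37240760 (mm9, minus strand) with 23 exons. Saline mice gave 872, 954 and 880 normalised counts, and ketamine mice gave 170, 443 and 217. The ketamine mean was 69.3% lower, and the highest ketamine mouse stood at 0.508 times the lowest saline mouse (log2 fold change -1.82 ± 0.33 SE). Its relatives Robo1, Robo2 and Robo4 had log2 fold changes of -0.14, -0.10 and 0.14, all with overlapping groups.

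Epha4 and Ephb2 are receptor tyrosine kinases that bind ephrins at axons and synapses. Epha4 (chr1:77363760-77511663, mm9, minus strand, 18 exons) gave 9153, 7661 and 8248 in saline mice and 3899.8, 5735 and 3828 in ketamine mice (-0.92 ± 0.19). Ephb2 gave 667, 611 and 804 against 415, 392 and 313 (-0.89 ± 0.18). Mice 3 and 9 were nearly equal for Epha4, whereas for Ephb2 mouse 9 was lowest and the 3 ketamine mice lay close together.
Across the 13 Eph receptors tested, 8 were lower and 5 higher on the mean, and the lower ones without overlap were these 2, which the rule chose (4.66% of all tested genes were lower without overlap). Under other scalings 0 or 1 receptor was higher without overlap. Ephb6 had the largest mean difference of the family (-0.99), with 6913 and 6628 in saline mice 1 and 6, 2889 in saline mouse 10 and 2106, 3559 and 2271 in ketamine mice, so that saline mouse 10 overlapped with ketamine mouse 5. Of the 8 ephrins tested, their ligands, 0 were without overlap in either direction (up to 1 higher under other scalings), and their median was 0.36.

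Met, the receptor for hepatocyte growth factor and a marker of developing projection neurons, gave 369, 270 and 251 in saline mice and 94.0, 80.9 and 173 in ketamine mice (-1.41 ± 0.31). It was 1 of 6 genes in which mouse 9 was the highest ketamine mouse. In the list of axon guidance genes, which holds Robo3, Epha4 and Ephb2, 54 genes were tested and 29 were lower on the mean. The groups did not overlap in 4 lower genes, these 3 and Sema7a, and in 3 higher ones, Sema3f, Sema4g and Ntng1, with a median of -0.05. These are 7.41% lower and 5.56% higher, near the 4.66% and 5.69% of all tested genes, and the 3 receptors were chosen by the rule. Under other scalings the counts reached 5 and 6.

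**Figure D3:**
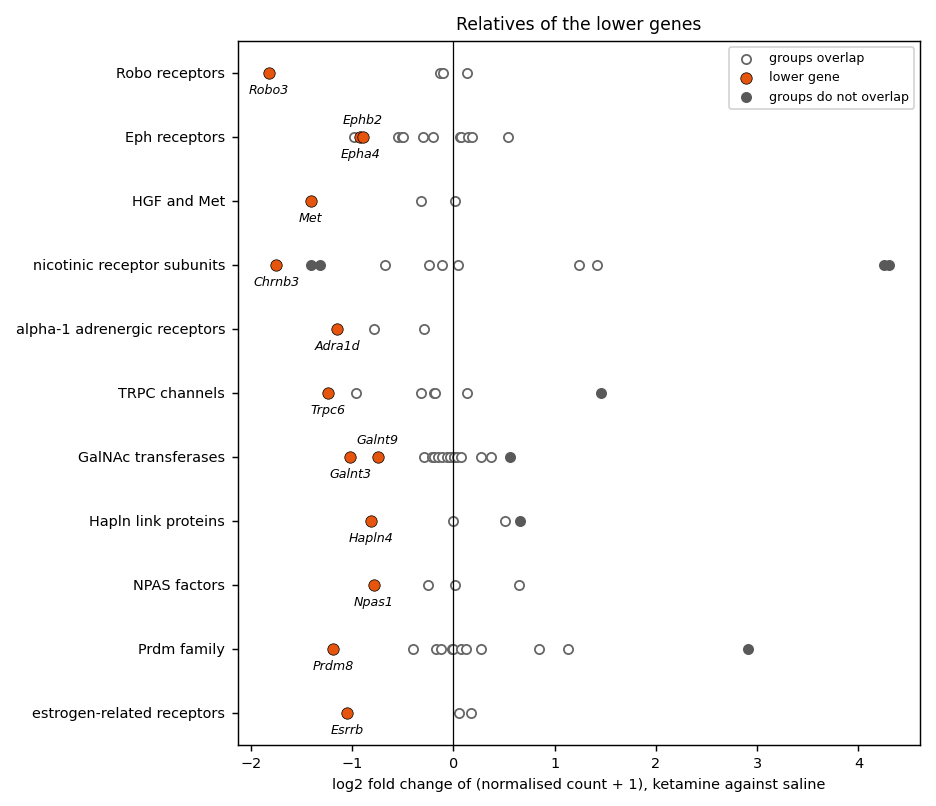
Log2 fold changes of (normalised count + 1), ketamine against saline, are plotted for the tested members of 11 families or groups of related genes that hold a lower gene (orange). Filled grey points are relatives whose 3 ketamine and 3 saline mice do not overlap, open points those that do; Robo3 stands at -1.82 and its 3 relatives between -0.14 and 0.14.

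Of the receptors, channels and transporters, Chrnb3 showed the largest difference. It encodes the β3 subunit of nicotinic acetylcholine receptors, a subunit best known from catecholaminergic neurons. Saline mice gave 93.9, 83.0 and 134 and ketamine mice 19.6, 38.6 and 33.5 normalised counts (-1.75 ± 0.33). Of the 12 nicotinic subunits tested, 7 were lower and 5 higher on the mean. Chrna5 and Chrna1 were also lower without overlap, and Chrnb4 and Chrna10 higher without overlap, at very low levels in saline mice. Over all tested genes, 4.66% were lower and 5.69% higher without overlap. Chrna4 and Chrnb2, the main subunits of the cortex, overlapped between the groups (-0.24 and 0.05).

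Adra1d, the α1D adrenergic receptor through which noradrenaline signals via Gq, gave 1168, 1279.7 and 1020.2 in saline mice and 299, 679 and 687 in ketamine mice (-1.15 ± 0.32). Mice 5 and 9 were nearly equal and mouse 3 stood far lower. Adra1b and Adra1a were lower on the mean (-0.79 and -0.29), with overlap of the groups. For Adra1b, saline mice 1 and 6 gave 1009.6 and 919, saline mouse 10 gave 370.1, and ketamine mice gave 354, 469 and 402.

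Trpc6, a calcium-permeable channel opened by diacylglycerol, gave 533, 484 and 351 in saline mice and 128, 262 and 201 in ketamine mice (-1.24 ± 0.29). Among the 7 TRPC channels tested, Trpc7, its close relative, was higher without overlap, with 132, 100.4 and 41.7 in saline mice and 278, 194 and 217 in ketamine mice (1.45). These 2 channels thus differed in opposite directions in the same libraries, under all 5 scalings. Tmem178, a membrane protein of the endoplasmic reticulum, had the highest level of this role per kilobase of exon, and gave 2091, 1876 and 1864 against 988, 1291 and 1011 (-0.83 ± 0.15).
The other 4 were low in the PLc. They are Slc26a4, the anion exchanger pendrin of the inner ear and thyroid, Slco2a1, a prostaglandin transporter, Serinc2, a serine incorporator, and Vmn2r84, a vomeronasal receptor. Slc26a4 stood at 186 ± 51.3 in saline and 68.5 ± 22.7 in ketamine mice (SD over 3 mice each), Slco2a1 at 68.0 ± 22.1 and 33.7 ± 6.36, and Serinc2 at 120 ± 27.4 and 56.9 ± 10.7. Vmn2r84 gave 64.2, 115 and 69.2 against 14.7, 43.3 and 35.4, and since it belongs to a large family of close copies its reads may be shared with relatives.

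Hapln4 was the 1 matrix gene of the set that is also on the perineuronal net list. It encodes a link protein that fastens proteoglycans to hyaluronan, also in perineuronal nets, the dense matrix around many parvalbumin interneurons. Saline mice gave 3955, 3475 and 3976 normalised counts and ketamine mice 2206, 2460.1 and 1869 (-0.81 ± 0.15). Hapln1, the other link protein of the nets, was level (-0.01) with overlap, and Hapln3 was higher without overlap at a low level (0.66). Of 53 tested genes of the extracellular matrix and perineuronal net list, 2 were lower without overlap, Hapln4 and Tnc (3.77%, against 4.66% of all tested genes), and 6 were higher (11.3% against 5.69%), with a median of 0.12.

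Galnt9 and Galnt3 encode enzymes that start O-linked glycans. Galnt9 had saline values within a narrow range, 2017, 2078 and 2038, and gave 1025, 1485 and 1182 in ketamine mice (-0.75 ± 0.16). Galnt3 gave 52.7, 84.0 and 87.9 against 35.2, 37.6 and 33.5. Of the 16 GalNAc transferases tested, these 2, chosen by the rule, were lower without overlap (up to 3 under other scalings). Galnt10 was higher without overlap (0.56), and the median of the family was -0.05. Over all tested genes the shares were 4.66% and 5.69%.
Cd34, a sialomucin of the surface of blood vessels and blood progenitors, gave 3238, 3204 and 2393 in saline mice and 1025, 1742 and 1735 in ketamine mice (-1 ± 0.24). The 16 endothelial markers tested did not follow it, with a median of -0.08 and 0 genes without overlap in either direction. Within its exons, 148 bases (5.65%) are shared with Gm16897 on the opposite strand, whose mean was 12.1.
Ccbe1, a secreted matrix protein known from lymphatic growth, stood at 439 ± 55.1 in saline and 209 ± 57.9 in ketamine mice, and Cldn26, a claudin-like protein also named Tmem114, at 86.2 ± 5.52 and 44.0 ± 11.5 (SD over 3 mice each).

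The cytoskeletal genes were all of low abundance. Krt80, a keratin of epithelia, had the smallest ratio of the highest ketamine to the lowest saline value, 0.316, with 143, 101 and 109 in saline mice and 24.5, 32.0 and 29.0 in ketamine mice (-2.00 ± 0.24). Its ketamine values were close to one another, at 0.208 to 0.272 times the saline mean. Myh3, an embryonic myosin heavy chain, stood at 122 ± 25.4 in saline and 55.8 ± 13.7 in ketamine mice (SD over 3 mice each). Psrc1, which binds microtubules, stood at 243 ± 29.2 and 114 ± 35.4, and Tcte1, known from sperm tails, at 79.9 ± 6.64 and 48.9 ± 0.91. Of the exon bases of Tcte1, 34.1% are shared with Gm17441 on the opposite strand.

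Lct, which encodes lactase, showed the largest fold change of the set, a rank that rested on saline mouse 10. Saline mice gave 112, 70.45 and 805 and ketamine mice 20.6, 32.9 and 25.4 normalised counts. Saline mouse 10 stood far above the other two saline mice, and the log2 fold change of -2.80 ± 0.83 became -1.745 without that mouse, behind Krt80 (-2.05) and Robo3 (-1.84). Anxa11, a calcium-dependent phospholipid-binding protein, gave 1153, 1199 and 1702 against 416, 716 and 781 (-1.11 ± 0.27), and Lsm11, part of the U7 particle that processes histone transcripts, gave 1093, 936 and 1097 against 608, 672 and 528 (-0.79 ± 0.15).
Cerkl, a relative of ceramide kinase, gave 97.7, 88.8 and 89.0 against 38.2, 59.3 and 33.5. Its exons share 1124 bases (21.3%) with Itga4 on the opposite strand and 201 bases (3.8%) with Neurod1 on the same strand, genes with means of 489 and 396 normalised counts. Asb11, a SOCS box protein, showed the smallest difference of the set, with 137 ± 11.2 in saline and 85.0 ± 7.0 in ketamine mice (SD over 3 mice each).
The 2 genes with clone names were A330008L17Rik, at 172, 189 and 174 against 97.9, 116 and 106, and M5C1000I18Rik, at 310.4, 289 and 299.8 against 136, 204 and 145. For the latter, 40.4% of the exon bases are shared with C2cd4b on the opposite strand. The strand setting of the counting is not given in the sources used here, so reads of such overlapping pairs cannot be told apart.

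The order of the mice was not the same throughout the set. Ketamine mouse 3 was lowest in 21 of the 35 genes, mouse 9 in 11 and mouse 5 in 3, and mouse 5 was highest in 27. The order 3, 9, 5 from low to high was the most frequent, with 18 genes, followed by 9, 3, 5 with 9 genes. Relative to the saline mean, the median gene stood at 38.9% in mouse 3, 46.1% in mouse 9 and 57.6% in mouse 5. The saline mice showed no such order, since the lowest value fell in mice 1, 6 and 10 for 12, 11 and 12 genes.

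Within a group, the ketamine mice spread more than the saline mice. The median ratio of the highest to the lowest value was 1.60 in ketamine mice and 1.22 in saline mice, against 1.40 and 1.24 over genes that reached the mean of 50. The ketamine ratio was the larger in 28 of the 35 genes, and in 67.3% of those genes. The rule itself reads the extremes of both groups, so these spreads are not independent of it.

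Many of the 35 genes were sparse. The median of their means was 206 normalised counts, against 815 for genes that reached the mean of 50, and 17 (48.6%) had a mean under 200, against 18.4%. Another 8 (22.9%) had a mean of at least 1000, against 44.1%. Per kilobase of exon, their median percentile among those genes was 13.6, and Zfp238 stood at the 94.3rd percentile, Epha4 at the 88.0th and Tmem178 at the 86.2nd. All 35 were protein coding in GENCODE M1, as were 96.2% of the comparison genes, although RefSeq lists A330008L17Rik and M5C1000I18Rik as long non-coding RNAs. Exon length (median 4035 bases against 3817) and gene span (25.7 kb against 24.7 kb) were close to those of the comparison genes. The genes lay on 18 chromosomes, with no more than 4 on any of them.

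To relate the set to cell types, the mean log2 value of marker lists was taken in each mouse relative to the saline mean. Of the 35 genes, 7 were in any of the 38 lists examined and 28 in none. A general list of cortical excitatory neurons holds none of the 35 genes but does hold Neurod6. Of its 20 markers, 19 were lower on the mean and 8 (40%) without overlap, against 4.66% of all tested genes, with a median of -0.58. Neurod6 is 1 of the 8 and met the rule's margin, so this count is not independent of the rule. Neurod2, Neurod6 and Bhlhe22 are also among the 10 lower genes of the neuronal transcription factor list, so the 2 lists are not separate. Slc17a7, the vesicular glutamate transporter of these neurons, gave 49417, 48207 and 32973 in saline mice and 22152, 40369 and 32985 in ketamine mice, with overlap. Saline mice 1, 6 and 10 had excitatory scores of 0.19, 0.14 and -0.33, whereas ketamine mice 3, 5 and 9 had scores of -1.08, -0.31 and -0.46, so that saline mouse 10 overlapped with ketamine mouse 5. Lists of layers 2 to 5 had medians of smaller size. In upper layers 2 to 3 the median was -0.12, and 12 of 17 genes were lower on the mean, 2 (11.8%) without overlap. In layers 4 to 5a it was -0.19, with 6 of 8 lower and 1 (12.5%) without overlap. In layer 5 it was -0.03, with 9 of 15 lower, 2 (13.3%) lower without overlap and 3 (20%) higher without overlap. Each share of lower genes is above 4.66% but rests on 1 or 2 genes. In layers 6 and 6b, 13 of 16 genes were higher on the mean, with 2 (12.5%) higher without overlap and a median of 0.505. Over all tested genes 5.69% were higher without overlap. Of the layer 5 list, Bcl11b (higher without overlap) is also on the striatal list, and Etv1 (lower without overlap) on the olfactory bulb list. The mean of the 35 genes on the same scale was -1.40, -0.88 and -1.14 in mice 3, 5 and 9. Mouse 3 was lowest and mouse 5 highest in both. The rule used these values of the 35 genes, and a shared order of 3 mice was not tested.

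Other lists stood higher in ketamine mice. All 9 genes of the pan-GABAergic list were higher on the mean and 8 without overlap, against 5.69% of all tested genes, with a median of 0.91 and scores of 1.26, 0.75 and 1.44 in mice 3, 5 and 9. Lists of interneuron types had medians nearer 0. The PV median was -0.06 (3 of 20, or 15%, lower and 3, or 15%, higher without overlap). For SST it was 0.16 (2 of 13, or 15.4%, lower, Satb1 among them, and 2, or 15.4%, higher). For VIP and CCK it was 0.02 (1 of 13, or 7.69%, lower, Npas1, and 1, or 7.69%, higher). For neurogliaform cells it was 0.09 (1 of 11, or 9.09%, lower and 2, or 18.2%, higher). Over all tested genes 4.66% were lower and 5.69% higher, and each of these counts rests on few genes. The rule chose Satb1 and Npas1. Kcns3 and Kcnc2 of the PV list met its margin but were left out by symbol. The lower counts of these 3 lists are thus not independent of the rule. Of 31 tested markers of striatal projection neurons, 30 were higher, 9 (29%) without overlap, with scores of 2.58, 1.78 and 0.06. Of 21 tested markers of the olfactory bulb, 18 were higher, with scores of 2.10, 1.24 and 3.35. Without overlap, 11 (52.4%) of these were higher and 1 lower. On the neuroblast and progenitor list, 14 of 15 were higher, 7 (46.7%) without overlap, with scores of 1.06, 0.97 and 1.35. These lists share markers and are not independent of one another. The neuroblast list shares Dlx2, and the striatal list Dlx6, with the pan-GABAergic list. Sp8 is on the neuroblast and olfactory bulb lists. The striatal list also shares Tac1 with the PV list and Pdyn with the SST list. Calb2 and Vip are on the olfactory bulb list and on interneuron lists. In saline mice, the olfactory bulb score ran from -0.42 to 0.66 and the striatal score from -0.06 to 0.11. The olfactory bulb and striatal lists thus split the ketamine mice differently, mouse 9 having the highest olfactory bulb score and a striatal score within the range of saline mice. In mouse 9 the 35 genes stood at a median of 46.1% of the saline mean. The rule requires them to be low in each ketamine mouse. The part of these markers in the lower values was not tested.

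Saline mouse 10 stood apart from the other saline mice in further lists. Its oligodendrocyte score was 1.70, against -0.72 and -0.98 in saline mice 1 and 6 and 0.03 to 0.65 in ketamine mice, and its ependymal and choroid plexus score was 2.23, against -1.39 and -0.84. Without saline mouse 10, 197 genes met the margin, including 33 of the 35, and without ketamine mouse 5, 129 did, including all 35. Leaving out ketamine mouse 9 gave 75 genes, again with all 35. Fewer mice make the margin easier to meet, so a gene of the set is lost only if its mean falls under 50. By the number of genes, membership was set more by saline mouse 10 and ketamine mice 5 and 9 than by the others, whose removal gave 43 to 51 genes.

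**Figure D4:**
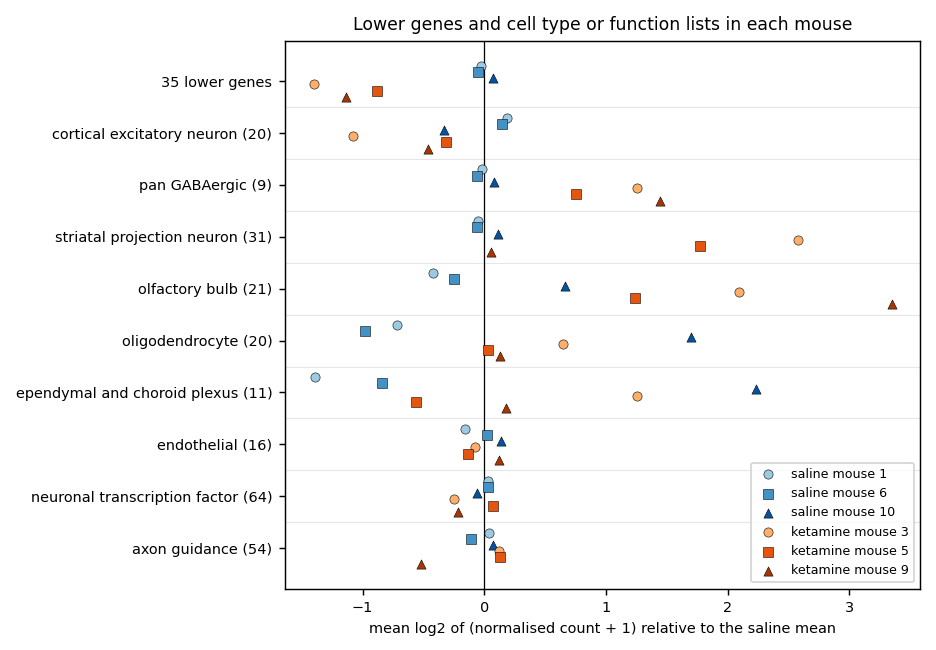
The mean log2 of (normalised count + 1) relative to the saline mean is shown for each mouse, for the 35 lower genes and for 9 lists, with the number of genes tested in brackets. Ketamine mice lie left of 0 for the lower genes (-1.40 to -0.88) and the excitatory list (-1.08 to -0.31), where saline mouse 10 (-0.33) overlaps with them, and right of 0 for the pan-GABAergic and olfactory bulb lists.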

How the data were processed

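RNA of the PLc of 6 mice was measured by RNA-seq, with 1 library per mouse. The library kit was NEB Next Ultra II, and all RIN values were above 8 per the labels. According to the submitters' processing notes, the authors used CASAVA, TopHat2 2.0.11 on mm9, HTSeq and DESeq2, while the annotation and strand setting are not given in the sources used here. For each gene the deposited table gives a signal, the count after division by the library's size factor by the authors, and the 6 mice have 1 column each. Dividing by 1 step per library gave whole reads for 100.0% of values (tolerance 0.01 normalised counts). Counting error only is covered by the depth.

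Groups came from the sample titles, which number separate mice. The rule was applied to the deposited values. Log2(normalised count + 1) was fitted with limma 3.58.1 in R 4.3.3 (trend, two-sided, Benjamini-Hochberg adjustment, threshold 0.05) in the 16127 genes whose mean was 10 or more, and fold changes on this scale understate those of sparse genes. Alternatives were pseudocounts of 0.1 and 5, no filter or a mean of 100, other scalings, edgeR 4.0.16 and DESeq2 1.42.0 on recovered reads, and each mouse left out. Gene positions on mm9 came from GENCODE M1 and were found for 37205 of 37620 identifiers. Promoters are from RefSeq on GRCm38.p6, with 250 bases before each start. They were matched for 29 of the 35 genes by RefSeq gene identifier, or by symbol where that gave no match. Comparison genes were matched by identifier only. Named genes were the 15 with the smallest ratio, the 10 with the largest mean, those on a list and those beside the margin, and the remaining genes of the set were added to account for all of it. Genes outside the set that are not on a list, such as the relatives in each family, and the roles were chosen after the values were seen. The 35 genes and the 38 lists were chosen with earlier results of these data known.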

Additional observations from a re-analysis of the deposited data

How the results depend on the processing

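The number of lower genes depended on the margin and on single mice. A ratio of at most 0.7 gave 20 genes, of at most 0.8 gave 54, and any value under 1 gave 592, and a mean of at least 100 gave 23. With 1 mouse left out in turn, 43 to 197 genes met the margin, the most without saline mouse 10, then 129 without ketamine mouse 5 and 75 without ketamine mouse 9. With fewer mice the margin is easier to meet, and 32 to 35 of the 35 genes were among those that met it. A mean of at least 20 gave 48 genes, and TMM factors gave 35 (34 of them the same genes), recomputed size factors 36, upper-quartile scaling 38 and scaling by total reads 27 (26 of them the same). Over all genes, limma and edgeR called 0 lower genes under each alternative run, and DESeq2 called 37. The median log2 fold change of the 35 genes ran from -1.17 to -0.90 when mice were left out in turn, and the sign of each gene is fixed by the rule that chose it. Over 10 settings added after seeing the data (4 scalings and 6 mice left out), the list medians kept their direction in 10 of 10 for the excitatory (-0.76 to -0.36), pan-GABAergic, striatal, olfactory bulb and neuronal transcription factor lists, and in 8 of 10 for axon guidance (-0.23 to 0.09). Among all tested genes the median log2 fold change lay between -0.01 and 0.06 over the scalings. No paired analysis was possible because the mice of the groups share no number. Depth limits the genes with few reads, 11 of which had a ketamine mean under 50 normalised counts.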
